A study of Mus musculus with 2 samples.

Results

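The genes described here code for the machinery of pre-mRNA splicing in single CD4 T cells, Prpf38b among them. They were chosen by symbol: names beginning with Srsf and a digit, Prpf, Snrp, Sf3a, Sf3b, Hnrnp, U2af or Safb, with no processed copy ending in -ps. The rule found 68 of the 12432 genes in the table. The symbols alone set the membership, but the group was proposed after its levels, its spread over cells and its rank correlations in these same cells had been seen, so every value is a description and no test was made.

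The cells came from C57BL/6 mice that carried Candida albicans engineered to express the model peptide 2W1S. CD4 T cells that recognise this peptide were sorted from spleen and peripheral lymph nodes and captured singly on a Fluidigm C1 instrument, where SMART-Seq v4 copies whole transcripts without molecular identifiers. The samples are labelled by month, and the cells of a month are called a capture here. Cells that share a prefix in their column names are called a run. The March capture has 82 cells, in the runs Mar1 (25 cells) and Mar17 (57 cells). The April capture has 96, in the runs Apr13 and Apr21 (48 cells each). Whether the runs of a month were captured separately on the instrument is not stated in the labels. All 178 cells carry the same genotype, colonization and sort, no uncolonized group was analysed here, and how many mice stand behind each capture is not stated in the labels.

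Splicing removes introns from new transcripts in the spliceosome, which is built from small nuclear RNAs bound to proteins. SR proteins and hnRNPs bind exons and introns and steer the choice of splice sites. U2AF and the SF3A and SF3B complexes recognise the end of the intron and the branch point. Sm proteins form a ring around the small nuclear RNAs, and several Prpf proteins act in the tri-snRNP or in activation of the spliceosome. In T cells, activation changes the splicing of many transcripts, of which that of the phosphatase gene Ptprc is the best known.

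The deposited values are log2 levels, taken here as log2(value + 1) of a value scaled like TPM, which is relative to the total of a cell and to transcript length. The linear value is the number before the log, and a linear value of at least 1 is used here as detection. Per-cell linear sums lay between 892206 and 979888, and the read depth is unknown. The median cell had 5344 genes above 0 in March and 4933.5 in April. In 3 cells, all of the run Mar1, over 50% of the linear signal came from mitochondrial genes, with 93.9% at most. Of the T cell markers, Cd3d, Cd3g and Lck were detected in 100% of cells, Cd3e in 96.1% and Cd4 in 70.8%, against 6.74% for Cd8a and 19.7% for Cd8b1. Of the 5 B cell markers looked for, Ebf1 was in the table and was detected in 88.8% of cells, and of the 4 myeloid markers, Itgam was detected in 40.4% and Csf1r in 2.81%. Of the natural killer cell markers, Klrb1c was detected in 4.49% of cells and Klre1 in 10.7%. Their part in the results was not tested. No cell name occurred in more than 1 run, and 0 pairs of cells had a Pearson r above 0.99.

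The splicing genes were detected more widely than the genes of the table as a whole. The median member was detected in 44.9% of cells, with a range from 3.37% to 99.4%, against a median of 16.9% over all genes. Detection in at least 50% of cells was reached by 29 of the 68 members (42.6%), against 16% of all genes. Together the members took a median of 1.20% of a cell's linear signal (0.0599% to 3.92%), and a cell had a median of 32 members detected (18 to 55), 33 in March and 32 in April. By role, the median detection was 78.9% of cells for the 10 SR protein genes, 61.2% for the 20 hnRNP genes, 45.2% for the 12 Snrp genes, 41.6% for the 9 genes of SF3A and SF3B, 27.2% for the 12 Prpf genes, 26.4% for the 2 Safb genes and 18.5% for the 3 U2af genes. The cytosolic ribosomal protein genes, for scale, had a median of 97.8% over 75 genes.

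**Figure D1:**
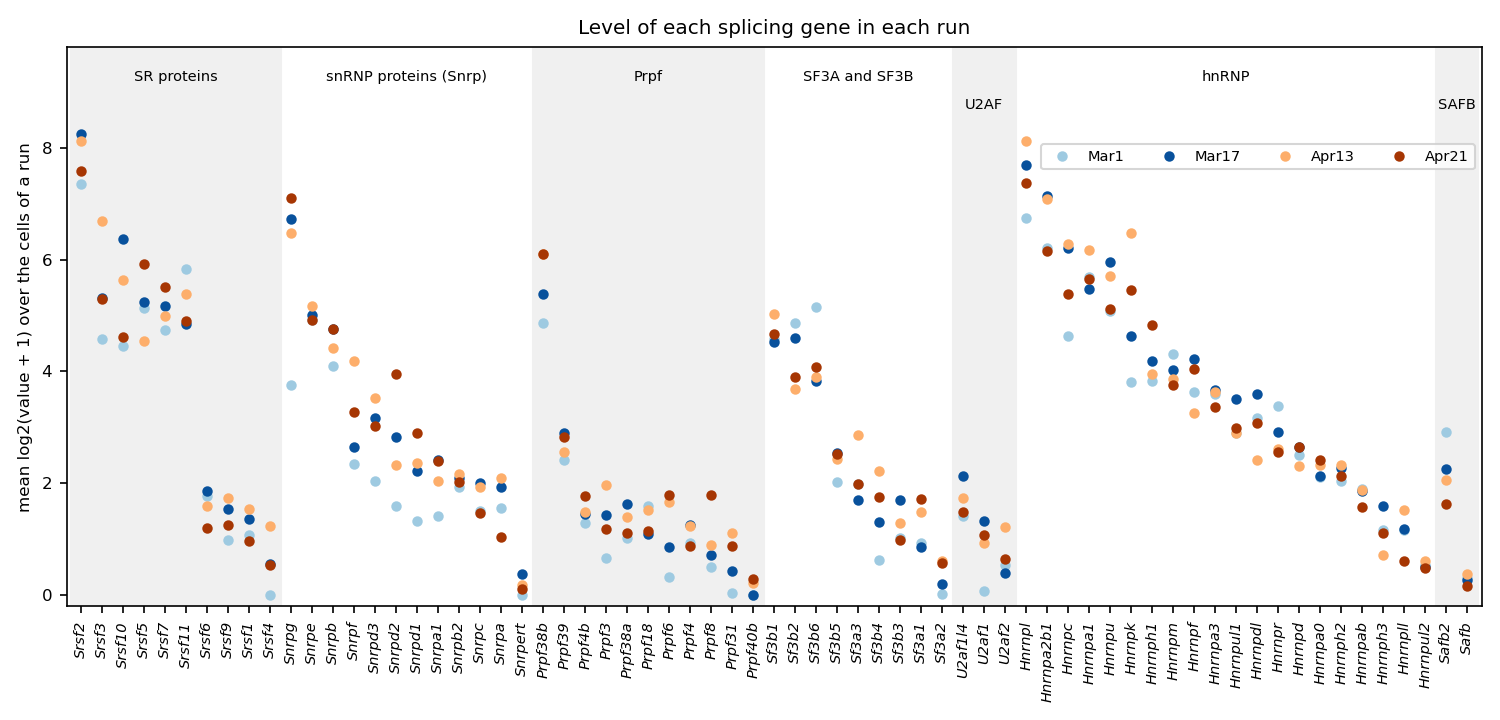
Each point is the mean log2(value + 1) of 1 splicing gene (x axis, grouped by role) over the cells of 1 run (color). Srsf2 and Hnrnpl stand highest, and members of every role reach down to a mean of 2 or less.

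Among the SR proteins, which bind exonic enhancers, Srsf2 was the gene with the highest mean of all members, 7.90 on the log2 scale. It was above 0 in every cell and detected in 98.9%. Its log2 level ran from 0.89 through a median of 9.67 to 12.53 in March and from 0.87 through 9.06 to 14.89 in April, so the cells of the captures overlapped. Srsf3, the smallest SR protein, was detected in 92.1% of cells, with a median log2 level of 4.24 in March and 6.50 in April. Srsf4 was the least detected of the SR genes, in 12.9% of cells, and its median was 0 in both captures.

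Of the proteins of the small nuclear ribonucleoproteins, Snrpg, an Sm ring subunit, was the most detected at 80.3% of cells. Its log2 level had a median of 6.88 in March (0 to 11.47) and 8.60 in April (0 to 11.71). Snrpb, which codes for the Sm proteins B and B', was detected in 73.0% of cells, with medians of 4.16 and 3.64. Snrpert was detected in 6.18% of cells; it shares 71.5% of its 31-base words with transcripts of other genes, so its reads may not be separable from theirs. Snrpe, the Sm ring subunit E, was detected in 69.1% of cells, and every cell with a value above 0 had a linear value of at least 1.

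Of the Prpf genes, Prpf38b was detected most and Prpf40b least. Prpf38b (ENSMUSG00000027881), at chr3:108902805-108911727 on the minus strand of mm10 in GENCODE vM21, codes for a protein related to Prpf38a, a component needed for activation of the spliceosome. It was above 0 in all 178 cells and detected in 96.6% of them. Its log2 level ran from 0.49 through a median of 4.58 to 12.24 in March and from 0.49 through 5.45 to 12.87 in April. The run medians were 4.41 in Mar1, 4.66 in Mar17, 5.51 in Apr13 and 5.39 in Apr21, so the runs of a capture lay closer to each other than to those of the other capture, while the cells of both captures overlapped over nearly their whole range. A linear value of at least 100 was reached in 28 of the 82 March cells, or 34.1% (exact Clopper-Pearson 95% interval 24.0% to 45.4%), and in 41 of the 96 April cells, or 42.7% (32.7% to 53.2%); the intervals overlap, and they cover counting error only. Prpf40b was detected in 3.37% of cells, all of them from April.

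In the branch point complexes, Sf3b1, the subunit that holds the branch site, was detected in 78.1% of cells and Sf3b2 in 69.7%. Sf3a2 was detected in 10.1%. Of the U2af genes, which code for the factors that read the 3' splice site, U2af1l4 was detected in 36.0% of cells, U2af1 in 18.5% and U2af2 in 15.2%. The median level of U2af1 and of U2af2 was 0 in both captures. Safb2, a scaffold attachment factor that binds RNA, was detected in 47.2% of cells and its relative Safb in 5.62%.

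Among the hnRNPs, Hnrnpl, which is known to act on Ptprc exons in T cells, was the most evenly present. It was detected in 99.4% of cells, with a median log2 level of 8.04 in March (0 to 11.94) and 8.02 in April (1.53 to 11.52). The single cell at 0 belonged to the run Mar1. Hnrnpa2b1 was detected in 93.3% of cells, with medians of 7.23 and 7.76. Hnrnpc was above 0 in every cell, as were Prpf38b and Srsf2, so 3 of 68 members were above 0 throughout, against 1.79% of all genes. At the other end, Hnrnpul2 was detected in 11.2% of cells. Hnrnpll, named here for its known part in Ptprc splicing and outside the naming rule, was detected in 18.5%.

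How low values were filled differed from member to member. Linear values between 0 and 1 made up 36.6% of all positive values in the table. In Prpf38b, 6 cells lay between 0 and 1, and the other cells spread from 1 up to the highest value. In Snrpe, 41.0% of cells had a linear value of at least 100 and none lay between 0 and 1, with a lowest positive log2 level of 1.31. No cell lay between 0 and 1 either in Hnrnpl, Snrpd3, Snrpert and Snrpg, which makes 5 of 68 members (7.35%), against 8.65% of all genes. Prpf39, chosen here as the other extreme, had values above 0 and below 1 in 42.1% of cells. Over the 68 members, the share of cells in that low range had a Spearman rho of 0.50 with the length of the longest annotated transcript. The lowest positive linear values fell with transcript length over all genes too (rho -0.62 over 12163 genes, for the first quartile of the positive values), so what a value below 1 stands for differs between short and long genes.

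**Figure D2:**
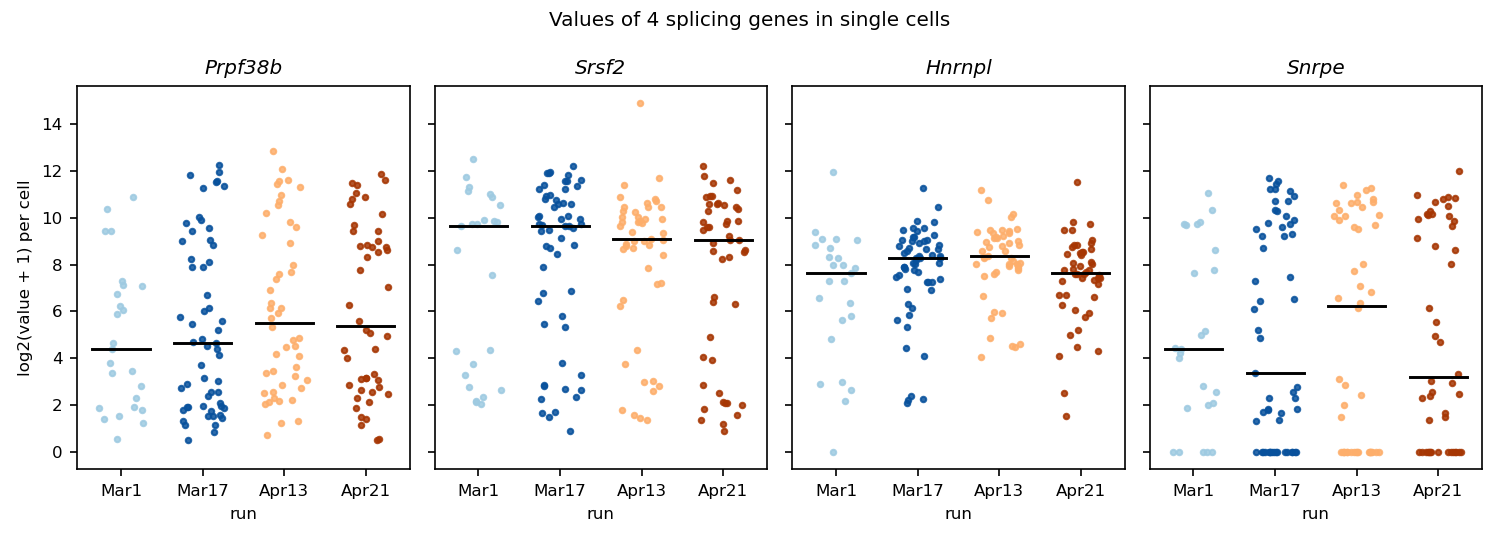
Each point is 1 cell; the y axis is log2(value + 1) and the x axis gives the 4 runs, for Prpf38b, Srsf2, Hnrnpl and Snrpe; bars are the medians of the runs. Hnrnpl keeps nearly all cells high, Snrpe has cells at 0 and cells from 1.31 upward, and Prpf38b fills the range from 0.49 to 12.87.

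Variation over cells was measured as the SD of the log2 level, after centring within each run, set against the running median SD of genes with a similar mean. Of the 65 members above 0 in at least 10% of cells, 13 were among the 10% of genes with the largest excess, which is 20% of members against 10% of all genes by construction. The median member stood at percentile 66.7, and 46 of 65 stood above percentile 50. The Snrp genes carried much of this: 6 of their 11 measured members were in that top group, and their median percentile was 93.2. It was 66.7 for SR genes, 61.3 for SF3A and SF3B, 59.8 for hnRNPs and 58.9 for Prpf genes. The excess of the members was smaller in 2 other settings. The top group held 8 of 65 members with a pseudocount of 10, and 6 of 47 among genes above 0 in 50% of cells. The roles were not counted in those settings.

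The largest excess was that of Snrpe, with an SD of 4.49 against 3.58 for genes of its level. Next were Snrpd2, Hnrnpf, Srsf10, Srsf2, Snrpd1, Hnrnpk and Snrpd3. Snrpd2, the Sm ring subunit D2, was detected in 46.1% of cells and was at or above a linear value of 100 in 25.3%, with medians of 0.49 in March and 0 in April and highest values of 11.15 and 11.33. Hnrnpf shares 66.2% of its 31-base words with other genes, which leaves its counting uncertain. Srsf10, known for splicing regulation under stress, reached 13.13 in March and 12.34 in April and was at 0 in other cells of both captures. Srsf2 had an SD of 3.50 against 2.90, with 69.1% of cells at a linear value of 100 or more.

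Hnrnpl was the only one of these 65 members among the 10% of genes with the smallest spread for their level, with an SD of 2.02 against 3.05. Hnrnpul1 (2.58 against 3.20), Hnrnpu (3.09 against 3.58) and Snrpc (2.29 against 2.72) followed. Prpf38b was not set apart by this measure: its SD of 3.55 nearly equalled the 3.54 of genes at its level, which is percentile 51.2.

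**Figure D3:**
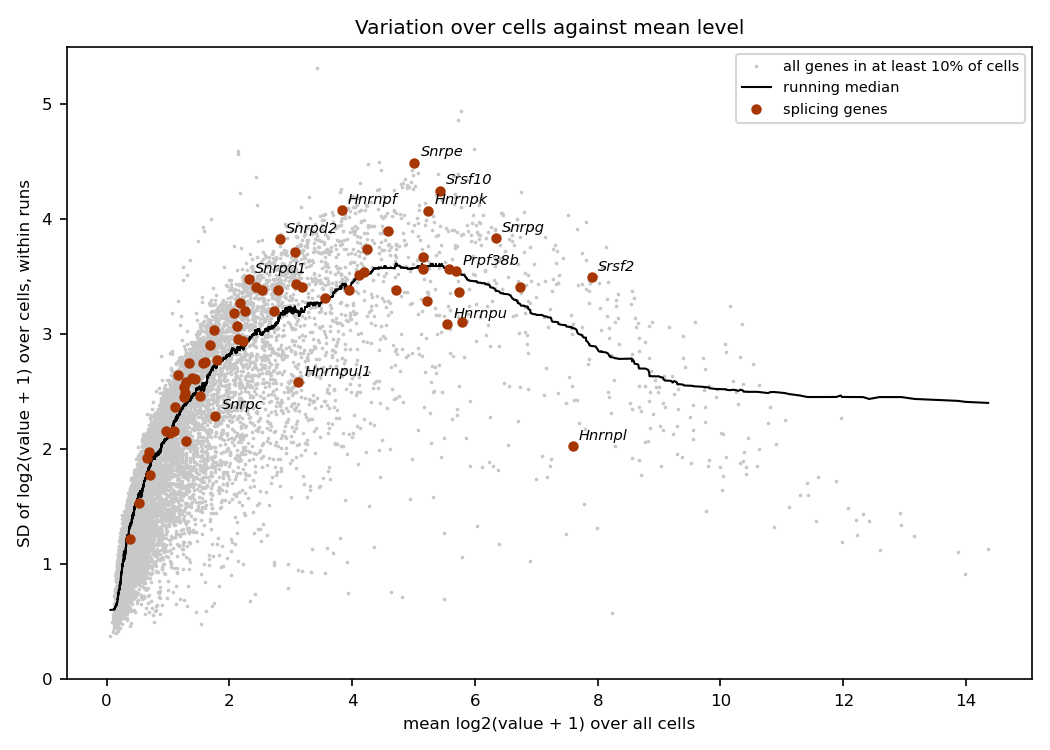
The y axis is the SD of log2(value + 1) over cells, centred within each run, and the x axis the mean, for all measured genes and for the splicing genes. Snrpe and Snrpd2 lie above the running median of all genes, Prpf38b lies on it, and Hnrnpl lies below it.

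The members varied together only weakly. Rank correlations were taken within each run, averaged over the runs of a capture and then over both captures, for genes above 0 in at least 25% of cells, which 62 members and 7664 genes reached. The cells of a run share a prefix in their column names, and they differ in the number of genes detected. Whether they share a library preparation is not stated in the labels. Over the 1891 pairs of members the median Spearman rho was 0.05, with 90% of pairs between -0.09 and 0.19 and a highest value of 0.31; the median over all gene pairs was 0.02, over proteasome genes 0.06 and over ribosomal protein genes 0.19. In the single runs the member median was 0.05 in Mar1, 0.08 in Mar17, 0.03 in Apr13 and 0.05 in Apr21. A pair had a positive rho in every run for 17.3% of member pairs and 10.8% of all pairs, and a negative rho in every run for 1.90% and 4.43%. Within roles the median was 0.09 for Snrp genes, 0.08 for SF3A and SF3B, 0.05 for hnRNP and for Prpf genes and 0.03 for SR genes. The highest pairs were Prpf18, a second-step factor, with Srsf1 at 0.31, Srsf9 with Hnrnpa2b1 at 0.30 and Snrpd2 with Srsf7 at 0.29. They joined different roles, as do most of the 1891 pairs. A rho of at least 0.2 was reached by 3.65% of member pairs. Within roles the share was 7.27% for Snrp, 6.32% for hnRNP, 3.57% for SF3A and SF3B and 0% for SR and for Prpf genes. The lowest was Hnrnpa3 with Safb2 at -0.27. The number of genes detected in a cell moved with the members: it had a rho of 0.42 with their score. Given that number, the member median was 0.033 and that of all pairs 0.0053.

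A score of the members, the mean of their log2 levels scaled within each run, gave a clearer order, with each member compared with the score of the others. A positive rho in every run was found for 25 of the 62 members (40.3%), against 21.1% of all genes, and a negative one in every run for 0 members, against 2.6%. The median rho was 0.15 over members and 0.06 over all genes. Of the 25, 10 were among the 20 hnRNP genes and 8 among the 11 Snrp genes, with 4 of 11 Prpf, 2 of 8 SF3A and SF3B and 1 of 10 SR genes.

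Snrpe followed the others most closely, with a rho of 0.36 (0.59 in Mar1, 0.25 in Mar17, 0.31 in Apr13 and 0.28 in Apr21). Hnrnpa1, a repressor of exon inclusion, had 0.29 (0.20 to 0.42 over the runs). Prpf6, which bridges the parts of the tri-snRNP, had 0.29 (0.12 to 0.46), and Hnrnpa3, Snrpb and Snrpg followed. At the low end stood Prpf38a at -0.06, Safb2, Prpf38b and Hnrnph3. The rho of Prpf38b with the others was 0.01, and it ranged from -0.26 in Apr13 to 0.28 in Apr21, so it held no steady sign. Over the 62 members, rho with the others was itself related to mean level (Spearman rho 0.27) and to total exon length (-0.33), as a description across genes.

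The windows around the annotated start of 3 members that followed the score, Snrpe, Snrpg and Prpf6, and of Prpf38b, which did not, are printed to show the base patterns counted over the members. Each is 300 bases from RefSeq on GRCm38.p6, from 250 bases before the start to 50 after it, read 5' to 3' on the gene's strand. Snrpe lies at chr1:133610231-133610530 on the minus strand, Snrpg at chr6:86371290-86371589 on the plus strand, Prpf6 at chr2:181601069-181601368 on the plus strand and Prpf38b at chr3:108911680-108911979 on the minus strand. Capitals mark CCGGAAG, a pattern of ETS factors, and the core of the NRF1 pattern (GCGCA, any base and GCGC), on either strand; where both strands of a match overlap they form 1 capital run.
Snrpe: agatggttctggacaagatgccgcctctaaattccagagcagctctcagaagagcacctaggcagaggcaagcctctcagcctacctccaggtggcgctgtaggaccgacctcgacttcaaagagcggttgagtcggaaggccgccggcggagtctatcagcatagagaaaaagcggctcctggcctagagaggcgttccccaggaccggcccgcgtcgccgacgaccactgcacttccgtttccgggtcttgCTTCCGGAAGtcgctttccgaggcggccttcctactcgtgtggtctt
Snrpg: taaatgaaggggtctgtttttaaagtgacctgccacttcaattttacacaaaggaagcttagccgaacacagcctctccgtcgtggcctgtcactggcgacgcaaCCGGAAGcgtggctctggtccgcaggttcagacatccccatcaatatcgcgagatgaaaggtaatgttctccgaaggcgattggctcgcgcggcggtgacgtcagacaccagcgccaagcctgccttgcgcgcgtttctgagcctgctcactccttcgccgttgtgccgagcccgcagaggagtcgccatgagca
Prpf6: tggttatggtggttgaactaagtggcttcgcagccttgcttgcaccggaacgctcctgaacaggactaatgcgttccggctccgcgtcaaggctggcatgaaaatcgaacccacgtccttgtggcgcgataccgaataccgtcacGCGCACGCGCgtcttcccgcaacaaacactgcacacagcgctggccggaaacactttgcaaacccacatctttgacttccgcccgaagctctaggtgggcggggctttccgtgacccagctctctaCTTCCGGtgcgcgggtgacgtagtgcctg
Prpf38b: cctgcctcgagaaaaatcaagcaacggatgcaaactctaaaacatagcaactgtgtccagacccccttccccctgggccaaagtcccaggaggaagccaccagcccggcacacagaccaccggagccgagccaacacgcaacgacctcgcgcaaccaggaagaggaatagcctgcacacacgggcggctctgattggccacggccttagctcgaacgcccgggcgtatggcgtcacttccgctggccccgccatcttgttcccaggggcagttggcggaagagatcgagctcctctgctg
Of the 68 members, 58 were matched to a window. Some of these members have several windows, and a member counted if any of its windows held the pattern. Shares of all windows are per window, so they are not like the shares of genes. CCGGAAG was found in 19 of the 58 members (32.8%), against 21.4% of the 8577 table genes matched and 8.86% of all 32851 windows. The NRF1 core was found in 16 (27.6%), against 11.9% and 4.60%. The patterns CCAAT (48.3% of members and 43.1% of table genes), GGGCGG (67.2% and 66.7%) and TATAAA (10.3% and 8.92%) were nearer to the table as a whole; over all windows their shares were 37.4%, 35.7% and 13.6%. In the printed windows, Snrpe holds CCGGAAG on both strands, Snrpg holds it 1 time and Prpf6 holds both marked patterns. Prpf38b has no match, which says only that these letters are not in that window. The printed windows are examples. Hnrnpa1 and Hnrnpa3, which also followed the score, hold neither marked pattern. At the low end, Safb2 holds the NRF1 core, and Prpf38a and Hnrnph3 hold neither. Whether the patterns go with following the score was not tested.

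The members and the ribosomal protein genes were positively related over cells. The member score and the ribosomal score had a rho of 0.33, positive in each run (0.50 in Mar1, 0.34 in Mar17, 0.37 in Apr13 and 0.12 in Apr21), and 0.34 given the number of genes detected. A negative rho with the ribosomal score in every run was found for 1 of 62 members (1.61%), Hnrnph2, against 12.6% of all genes. A positive one in every run was found for 22 members (35.5%), against 10.5%. The median member had 0.10 and the median gene -0.01.

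Hnrnpk, a poly(C)-binding hnRNP, followed the ribosomal score most, with a rho of 0.40 (0.31 to 0.49 over the runs). Hnrnpa1 had 0.34, Snrpg 0.32 and Snrpd2 0.26, each positive in every run. The lowest values were those of Prpf18 (-0.12), Hnrnph2 (-0.10), Hnrnpdl (-0.09) and Prpf38b (-0.09). For Prpf38b the sign was positive in Mar1 (0.17) and negative in Mar17 (-0.17), Apr13 (-0.10) and Apr21 (-0.28). The highest members thus lay farther from 0 than the lowest.

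Against the T cell receptor chain genes Trac, Trbc1 and Trbc2, the sign depended on the capture. The rho of the member score with the score of these 3 genes was 0.53 in Mar1 and 0.24 in Mar17, and -0.20 in Apr13 and -0.09 in Apr21, for a mean of 0.12. Given the number of genes detected, the values were 0.45, 0.22, -0.17 and -0.26, with the same signs. The 3 genes hardly moved together, so their score is not read as 1 receptor level. Each compared with the score of the rest, their median rho was 0.02, and 0 of 3 were positive in every run. For the ribosomal protein genes the same median was 0.39, with 68 of 74 positive in every run. Over the 3 receptor chain genes themselves, the median March minus April difference in mean log2 level was -1.12, which is lower in March. With 1 sample per capture, this difference in sign was not tested and cannot be told apart from the capture. The CD3 genes, which code for the signalling chains of the same receptor, had a positive rho with the member score in every run (0.34, 0.42, 0.16 and 0.31).

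A negative rho with the receptor score in every run was found for 1 of 62 members (1.61%), Prpf18, against 6.04% of all genes. Its values were -0.23, -0.10, -0.27 and -0.15. The captures differed here: with the April runs alone, 28 of 63 members were negative in both runs, against 25.8% of all genes, and with the March runs alone 7 of 59, against 24.1%. By Pearson r the count over all runs was 5 of 62, against 4.97%. A positive one in every run was found for Hnrnph1, Snrpf and Srsf11, which is 4.84% of members against 7.32% of all genes. Among the highest means were those of Hnrnpa3 (0.24), Snrpf (0.21) and Snrpd2 (0.15), and the lowest after Prpf18 were those of Hnrnpu (-0.10), Snrpd3 (-0.09) and Hnrnph3 (-0.09). Hnrnpa1 shows the turn between captures in a single gene, with 0.53 and 0.41 in the March runs and -0.17 and -0.35 in the April runs.

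**Figure D4:**
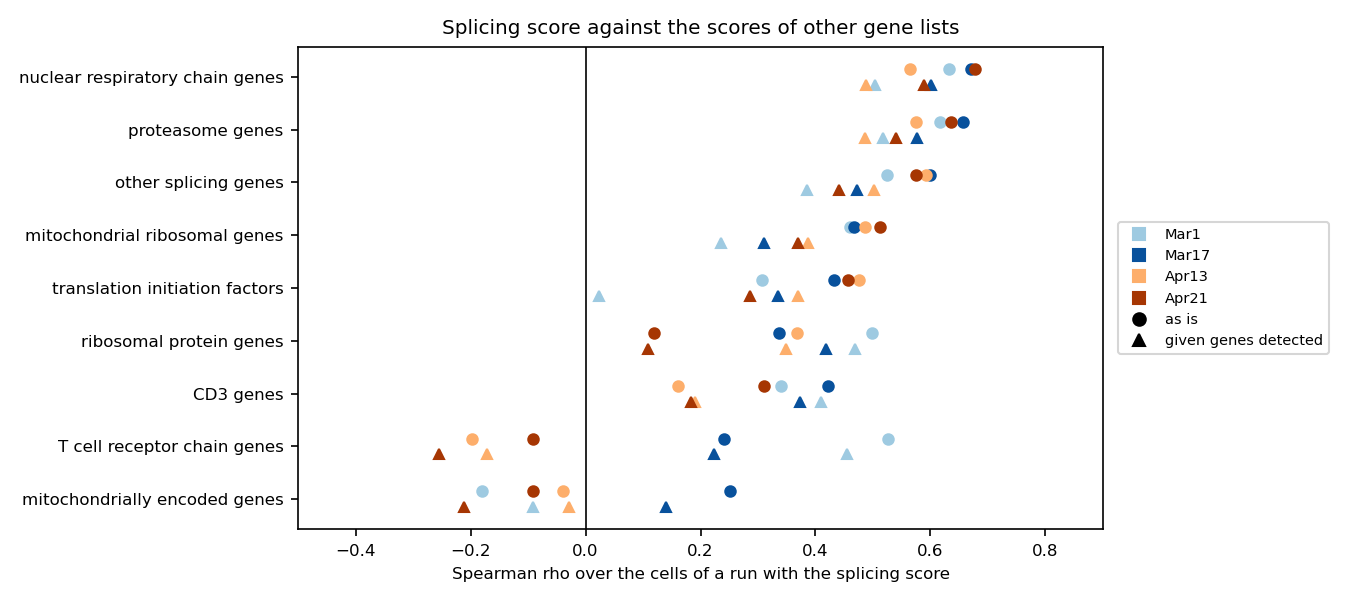
The x axis is the Spearman rho over the cells of a run (color) between the splicing score and the score of each list on the y axis; circles are as measured and triangles are given the number of genes detected. Respiratory chain, proteasome and other splicing scores lie to the right in every run, and the T cell receptor chain score is positive in both March runs and negative in both April runs.

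Other housekeeping lists had a higher rho with the splicing score than the ribosomal genes. It was 0.64 for 63 nuclear genes of the respiratory chain, 0.62 for 37 proteasome genes, 0.48 for 74 mitochondrial ribosomal genes and 0.42 for 57 translation initiation factors. Given the number of genes detected they were 0.55, 0.53, 0.33 and 0.25, of which the last pair lay below the 0.34 of the ribosomal genes. The 13 mitochondrially encoded genes had -0.01, with no common sign over the runs, and the mitochondrial share of signal had -0.15. By role, rho with the respiratory chain score was 0.58 for the Snrp score and 0.54 for the hnRNP score, against 0.38 for SF3A and SF3B, 0.28 for Prpf and 0.27 for SR genes. The Snrp and hnRNP scores had a rho of 0.45 with each other, while the SR score had 0.24 with Snrp and 0.25 with hnRNP. Of single genes outside the group, those with the highest mean rho with the splicing score and the same sign in every run were Prdx1, a peroxiredoxin (0.42), Cox5b, a subunit of cytochrome oxidase (0.39), Larp4 (0.37) and Gm8186 (0.37), then Naa10, Commd1, Ptma, Gm10053, Cnbd2 and Sec24b, down to 0.35. The most negative were Rbm45 (-0.33), Gnaz (-0.32) and Gm10800 (-0.31), followed by ENSMUSG00000074562, Klhl31 and Amer1.

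Splicing genes that the name rule leaves out were also looked at. Of a list of 101, 99 were in the table, their median detection was 38.2% of cells, and 30 were detected in at least 50% of cells. Their score had a rho of 0.57 with that of the members, and 0.45 given the number of genes detected. Of the 88 that could be correlated, 30 had a positive rho with the member score in every run and 1, the helicase Ddx42, a negative one; the shares over all genes were the 21.1% and 2.6% given above. The highest were Lsm6 (0.29) and Lsm7 (0.27), of the ring that binds U6 RNA, Ddx39b (0.27), a helicase that acts with U2AF, and Magoh (0.27), of the exon junction complex. The lowest were Ddx23 (-0.13), Son (-0.09), Ddx17 (-0.08) and Ddx42 (-0.07). Rbm39, detected in 100% of cells with a mean log2 level of 8.77, and the SR protein kinase Srpk1, detected in 100% with 7.58, were picked for their levels after these were seen; their rho with the score was -0.00061 and 0.05.

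Prpf38b had its own nearest genes. Among the highest mean rho values with it, of the same sign in every run, were those of Pip4k2b (0.30; 0.57 in Mar1, 0.17 in Mar17, 0.21 in Apr13 and 0.24 in Apr21), a lipid kinase, Htatsf1 (0.28), a factor that acts in elongation and splicing, Lhx9 (0.28), Nsd2 (0.28), Nudt7 (0.28), Ifi203 (0.27) and Triap1 (0.26), and Gm7027 (-0.30), Lrrfip1 (-0.28), Timm21 (-0.26) and Wdr37 (-0.25) were the most negative. These are the extremes of 7664 genes. Some are seldom detected and vary over the runs. Nudt7 was detected in 10.1% of cells, with 0.58 in Mar1 and 0.07 in Apr13, and Nsd2 in 15.7%, with 0.56 and 0.12. Lhx9, in 33.7%, was highest in Apr21 (0.42). With the other members the rho of Prpf38b reached 0.21 at most. That is the highest of far fewer genes, so it cannot be set against these extremes.

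On the median the members had nearly the same level in both captures. The median March minus April difference in mean log2 level was -0.05 over members and -0.03 over all genes. By any amount, 40 of 68 members were higher in April, a count that was not made over all genes. A difference of at least 1 was found for 4 of 65 members (6.15%), all higher in April, against 2.81% of all genes (2.18% higher in April and 0.63% higher in March). With 1 sample per capture there is no replicate check of any of these differences.

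Of these, Hnrnpk differed by -1.59, with a mean log2 level of 4.38 in March and 5.97 in April. Its run means were 3.81 in Mar1, 4.63 in Mar17, 6.48 in Apr13 and 5.45 in Apr21, so both April runs lay above both March runs. Snrpf, the Sm ring subunit F, differed by -1.17 (2.56 against 3.73), and 92.1% of its 31-base words occur in transcripts of other genes. Prpf6 differed by -1.04 (0.70 against 1.73), and by -0.87 without the run Mar1. In these 3 genes the single cells of the captures overlapped, with cells at 0 in each. The largest differences under 1 were those of Snrpg (-0.96), Srsf3 (-0.90), Sf3b4 (-0.89) and Prpf38b (-0.88), higher in April, and Sf3b2 (0.89), higher in March. After quantile normalization of the cells the split was 4 members higher in April and 1 higher in March, with 2.83% of all genes past the same limit. Without the run Mar1 it was 3 and 1 (3.43% of all genes), and with a pseudocount of 0.1 it was 10 and 3 (11.7%).

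**Figure D5:**
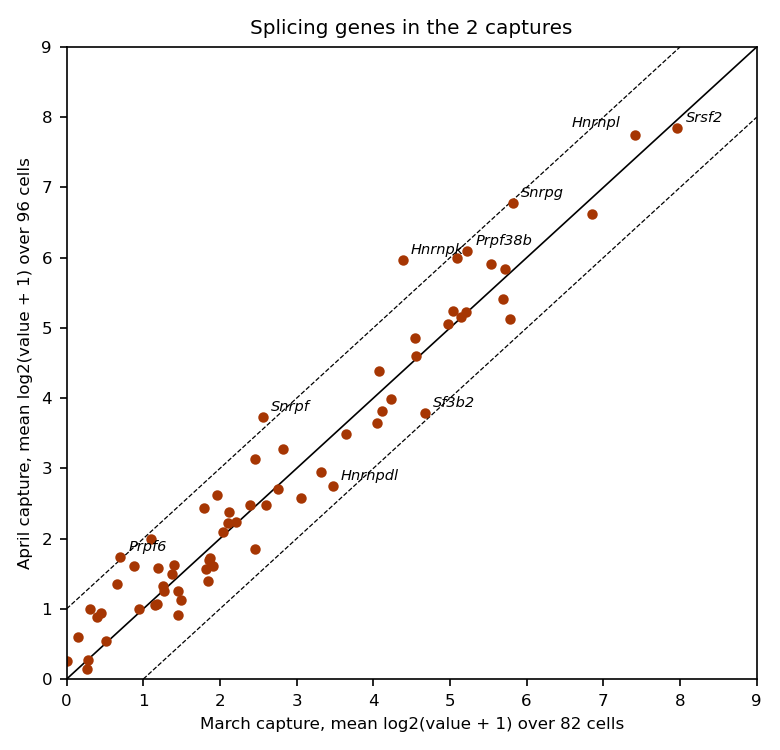
Each point is 1 gene, with its mean log2(value + 1) in March on the x axis and in April on the y axis; the solid line marks equal levels and the dashed lines a difference of 1. Hnrnpk, Snrpf and Prpf6 lie at least 1 above the line of equal levels, and most members lie near it.

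The members also share features of annotation that bear on how they are counted. In GENCODE vM21, 36 of the 68 (52.9%) have a transcript annotated for nonsense-mediated decay, against 25.8% of the 12163 table genes in the annotation, and 51 (75%) have a retained-intron transcript, against 52.8%. Genes of the splicing machinery are known to regulate themselves through such transcripts. The members had a median of 6.5 annotated transcripts, against 5 for the table genes, and the shares above were not adjusted for this. Prpf38b has 8 annotated transcripts of 531 to 3814 bases, of which 2 are annotated for nonsense-mediated decay and 3 as retained introns. The deposited values are 1 per gene, so transcripts of a gene were not told apart. Exons of 26 members overlap those of another gene, and more than 50% of the 31-base words of Snrpf, Snrpert, Hnrnpf and Sf3b4 (51.2%) occur in transcripts of other genes. Neither count was made over all genes, so they do not show whether the members differ from other genes.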

How the data were processed

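The deposited table holds log2 values per gene and cell, made by the authors. They were taken as log2(value + 1), a pseudocount of 1 on a TPM-like scale, because 2 to the power of each value minus 1 gives similar sums in every cell; no header states this. Build mm10 comes from the submitters' processing notes; for the aligner and the counter, the step is not given in the sources used here. Of 12432 Ensembl IDs, 12163 were matched to GENCODE vM21 symbols and 269 were not. Columns were assigned to captures by the month in their names and to runs by their prefix, and 0 were left unmapped. No cell was left out and no doublet caller was run.

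The members, gene lists and measures were chosen with earlier results of these data known. There is 1 treatment group, and runs of a capture count as 1 replicate, so no p-value was computed. Spearman rho was taken over the cells of a run, averaged over runs of a capture and then over the 2 captures, with each member left out of the score it was compared with. Correlations of single genes and of pairs used genes above 0 in at least 25% of cells. The main scores took all genes of a list, also those rarely detected. Variation and capture differences used genes above 0 in at least 10%. The SD trend was a running median over 301 genes. The shares of cells with Prpf38b at a linear value of at least 100 carry exact Clopper-Pearson 95% intervals for counting error. Other shares are given without intervals. Promoter windows are RefSeq's, and 31-base words were compared between annotated transcripts.

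Genes were named by rule: Prpf38b; in each role the 2 most and the 1 least detected; the 8 highest and 4 lowest for variation; the 6 highest and 4 lowest with the score of the others; 4 in each direction with the ribosomal, the receptor and, for other splicing genes, the member score; up to 5 per direction between captures; and, of all other genes, the 10 highest and 6 lowest with the member score and the 8 highest and 4 lowest with Prpf38b. Genes named otherwise are said to be so or illustrate a count. Some genes that the rule names are not reported here and are left out of the figures. Scripts were tested on simulated data. Python 3.11.15, numpy 2.4.6, SciPy 1.17.1 and pandas 2.3.3 were used.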

Additional observations from a re-analysis of the deposited data

How the results depend on the processing

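No paired analysis was possible because there is 1 group and its 2 captures share no replicate number. The settings tried were other pseudocounts, detection limits, filters, scalings and correlations, and leaving out the mostly mitochondrial cells, the run Mar1 or a capture; those on the members that follow the score of the others or the ribosomal score, and those on shared 31-base words, were added after seeing the data. The score of the members kept a positive rho with the ribosomal score in each, from 0.24 to 0.42 when a capture was left out. With the receptor chain score it was -0.14 without replicate 1, the March capture, and 0.38 without replicate 2. The cause was not tested.

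Median detection was 60.1% for any value above 0 and 27.2% for a linear value of at least 10. The members in the top 10% for variation numbered 13 of 65 in the main setting and 16 of 65 after quantile normalization. They numbered 8 of 65 with a pseudocount of 10 and 6 of 47 among genes above 0 in 50% of cells. The share of all genes is 10% by construction in each setting. The excess of members over all genes was thus smaller with that pseudocount and with that filter than in the main setting. The median pair rho was 0.022 after quantile normalization, beside 0.0015 over all genes.

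Members opposed to the ribosomal score in every run numbered 0 of 29 among genes with a linear value of 1 in 50% of cells, 2 without the mostly mitochondrial cells, 4 without Mar1 and 14 with runs pooled, against 15.0%, 15.1%, 21.0% and 55.5% of all genes. Without a capture they numbered 5 of 59 (March alone, 31.2% of all genes) to 11 of 63 (April alone, 30.1%). Those opposed to the receptor score numbered 0 of 29 in that same subset (5.54% of all genes), 5 by Pearson r (4.97%), 2 after quantile normalization (7.57%), after rescaling without mitochondrial, ribosomal and receptor genes (6.76%), with a pseudocount of 10 (6.17%) or without the mostly mitochondrial cells (7.09%), 5 without Mar1 (13.1%), and 22 with runs pooled (50.2%). Without a capture they numbered 7 of 59 (March alone, 24.1% of all genes) to 28 of 63 (April alone, 25.8%), so the members' share lay below that of all genes in March and above it in April. These counts rise by construction when fewer runs must share a sign.

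Without March and without April, 36 of 63 and 45 of 59 members followed the score of the others (39.2% and 47.3% of all genes), 29 and 36 the ribosomal score (25.7% and 26.3%), and 45 and 52 of 86 other splicing genes the member score (39.2% and 47.3%). The last count was 18 after quantile normalization (10.1% of all genes), 19 given the number of genes detected (11.7%), 12 of 30 among genes with a linear value of 1 in 50% of cells (24.6%) and 77 with runs pooled (75.3%). Members differing by at least 1 between captures numbered 13 with a pseudocount of 0.1 (11.7% of all genes), 1 with a pseudocount of 10 (0.445%) and 12 by linear means (33.1%).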
